A study of Mus musculus with 6 samples.

Results

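The 44 genes described here encode proteins that copy DNA or divide the cell. They were taken from a list of names by matching the gene symbol of each row, and every name matched 1 of the 51826 rows. Of the 44, 18 prepare or carry out the copying of DNA in S phase and are called S phase genes. The other 26 act from late S phase through mitosis, when the copies are pulled apart, and are called mitotic genes. The counts come from bulk RNA sequencing of ovaries of ICR mice in 6 libraries, 2 in each of 3 groups. The first group has the label COH, an abbreviation left unexplained there, with neither a model nor an agent named. The second is labelled as an OHSS model, for ovarian hyperstimulation syndrome, an overresponse of the ovary to stimulating hormones. The third is the same OHSS model with the agent Nintedanib (bibf1120), an inhibitor of the VEGF, FGF and PDGF receptor kinases, and is called the nintedanib group below. The labels used here give no age, hormone, dose, time or vehicle, and do not say whether libraries are separate animals, so p-values measure only the spread between these libraries.

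In the ovary most dividing cells are granulosa cells, the somatic cells that surround the oocyte and multiply as a follicle grows. They leave the cycle as they become luteal cells, while endothelial cells divide as vessels grow into the new corpus luteum. Most genes of the cycle are held off in resting cells by a repressor complex and are switched on in order: E2F factors start the S phase genes, and MYBL2 and FOXM1 then raise the mitotic genes. Because these RNAs are made mainly by dividing cells, their summed level in a tissue is often read as a measure of how much division takes place. In whole tissue RNA, fewer cells of a type and less RNA per cell cannot be told apart.

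The promoters of the list are shown first because they carry short words known for this timing. The RefSeq table of promoters, on GRCm38.p6, held 35 of the 44 genes, 14 of the S phase genes with 15 promoters and 21 of the mitotic genes with 1 each. In the 300 bases from 250 before to 50 after each start, 3 kinds of word were searched on both strands: the E2F-like words TTCCCGC and TTGGCGC, the CHR word TTTGAA, bound by the complex that holds and later activates mitotic genes, and the CCAAT box. The reverse of TTGGCGC ends in CCAA, so it can overlap a CCAAT box. The CHR word was found in 15 of 21 mitotic promoters (71.4%) and in 1 of 15 S phase promoters (6.67%), against 17.8% of all 32544 promoters of the table and 12.4% of the promoters of genes tested. The E2F-like words showed the opposite split, with 9 of 15 S phase promoters (60.0%), 3 of 21 mitotic promoters (14.3%), 6.85% of all promoters and 11% of those of genes tested. CCAAT boxes were common in both sets, at 81.0% of the mitotic and 66.7% of the S phase promoters, against 37.4% of all and 37.1% of those of genes tested. These are matches of letters and not measured binding sites. The 200 bases before the start are printed 5′ to 3′ on the gene's strand for 6 genes whose levels are given further down, with every match in capitals:
Kif11 (chr19:37376182-37376381, plus strand): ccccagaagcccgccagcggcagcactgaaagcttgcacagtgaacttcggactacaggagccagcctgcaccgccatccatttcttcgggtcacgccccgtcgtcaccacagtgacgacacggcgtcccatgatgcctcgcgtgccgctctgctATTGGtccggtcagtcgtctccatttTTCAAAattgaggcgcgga
Top2a (chr11:99024190-99024389, minus strand): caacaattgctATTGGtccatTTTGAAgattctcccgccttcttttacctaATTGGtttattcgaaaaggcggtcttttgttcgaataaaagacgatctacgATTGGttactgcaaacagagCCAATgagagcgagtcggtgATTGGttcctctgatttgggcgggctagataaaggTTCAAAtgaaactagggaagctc
Mki67 (chr7:135716380-135716579, minus strand): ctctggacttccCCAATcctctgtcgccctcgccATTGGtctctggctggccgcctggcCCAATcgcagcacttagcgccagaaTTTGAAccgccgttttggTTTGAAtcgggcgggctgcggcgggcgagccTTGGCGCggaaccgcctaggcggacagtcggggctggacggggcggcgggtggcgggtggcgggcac
Ccnb1 (chr13:100786487-100786686, minus strand): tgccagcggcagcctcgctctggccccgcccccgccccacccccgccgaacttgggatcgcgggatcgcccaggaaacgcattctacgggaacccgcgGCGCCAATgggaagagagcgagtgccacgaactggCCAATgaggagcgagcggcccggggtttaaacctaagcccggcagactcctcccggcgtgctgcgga
Mcm5 (chr8:75109309-75109508, plus strand): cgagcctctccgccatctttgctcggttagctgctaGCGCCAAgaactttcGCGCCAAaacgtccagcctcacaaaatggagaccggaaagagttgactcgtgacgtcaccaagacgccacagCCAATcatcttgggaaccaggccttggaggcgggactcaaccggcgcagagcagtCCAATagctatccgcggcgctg
Mcm6 (chr1:128359706-128359905, minus strand): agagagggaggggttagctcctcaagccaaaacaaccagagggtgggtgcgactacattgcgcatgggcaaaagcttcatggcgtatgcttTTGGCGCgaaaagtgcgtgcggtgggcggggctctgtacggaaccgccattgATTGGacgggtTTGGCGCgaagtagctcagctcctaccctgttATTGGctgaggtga
Kif11, which encodes the motor that pushes the spindle poles apart, has the layout found in 14 of the 21 mitotic promoters, a CHR word (here starting at position -19 from the start) and a CCAAT box (at position -45). Both words stood together in 6.92% of all promoters and 4.94% of those of genes tested. Top2a has CHR words at positions -179 and -23 among several CCAAT boxes. Mki67 holds CHR words and an E2F-like word. Ccnb1 has no CHR word in this window, and its E2F-like match is shared with a CCAAT box in the letters GCGCCAAT. Mcm5 and Mcm6, which encode subunits of the DNA helicase, each hold E2F-like words at 2 positions and no CHR word.

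The libraries held 28498435 to 34716751 counts in genes, and every one of the 44 genes had between 129 and 3165 counts in each library, so no value rests on a few counts. All 44 passed the filter on low counts, as did 19027 of the 51826 genes in all. Levels are given as CPM, counts scaled to library size with TMM factors of 0.961 to 1.03, and fold changes with their standard errors (SE) are on the log2 scale from edgeR's quasi-likelihood fit. A difference was called at a Benjamini-Hochberg adjusted p under 0.05 over all genes tested. Between genes, levels can be set side by side only per length: as mean CPM per kilobase of merged exons (GENCODE M21), the 44 genes ran from 1.13 for Ndc80, a kinetochore protein, to 27.0 for Pcna, the sliding clamp of the DNA polymerases. Their median was 6.03 CPM per kilobase, against 3.85 over all genes tested. Ube2c (16.6), Ccnb2 (15.9) and Cdc20 (15.1), all of the machinery that makes or destroys mitotic cyclin, followed Pcna. Reads of Pcna are uncertain, since its processed copy Pcna-ps2, identical over 775 of 781 aligned bases, held 760 to 1007 counts per library.

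Across the 6 libraries the list stood highest in the nintedanib group. Of the 44 genes, 24 had their highest level in nintedanib replicate 1 and 14 in nintedanib replicate 2, while 25 had their lowest level in OHSS replicate 2 and 14 in COH replicate 2. Both nintedanib libraries lay above the other 4 libraries for 25 of the 44 genes (56.8%), where 8.88% of all genes tested did so. The summed level of the mitotic genes was 719 and 589 CPM for COH, 654 and 546 CPM for OHSS, and 877 and 856 CPM for nintedanib libraries. For the S phase genes the sums were 561 and 513, 581 and 463, and 624 and 651 CPM. In both sets the nintedanib libraries were the highest and the COH and OHSS libraries overlapped. The mitotic sum divided by the S phase sum was 1.28 and 1.15 for COH, 1.13 and 1.18 for OHSS, and 1.41 and 1.31 for nintedanib libraries, a ratio chosen after the values were seen and not tested. With 2 libraries against 2, an exact permutation test of such a value cannot go below p = 0.333 (two-sided).

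**Figure D1:**
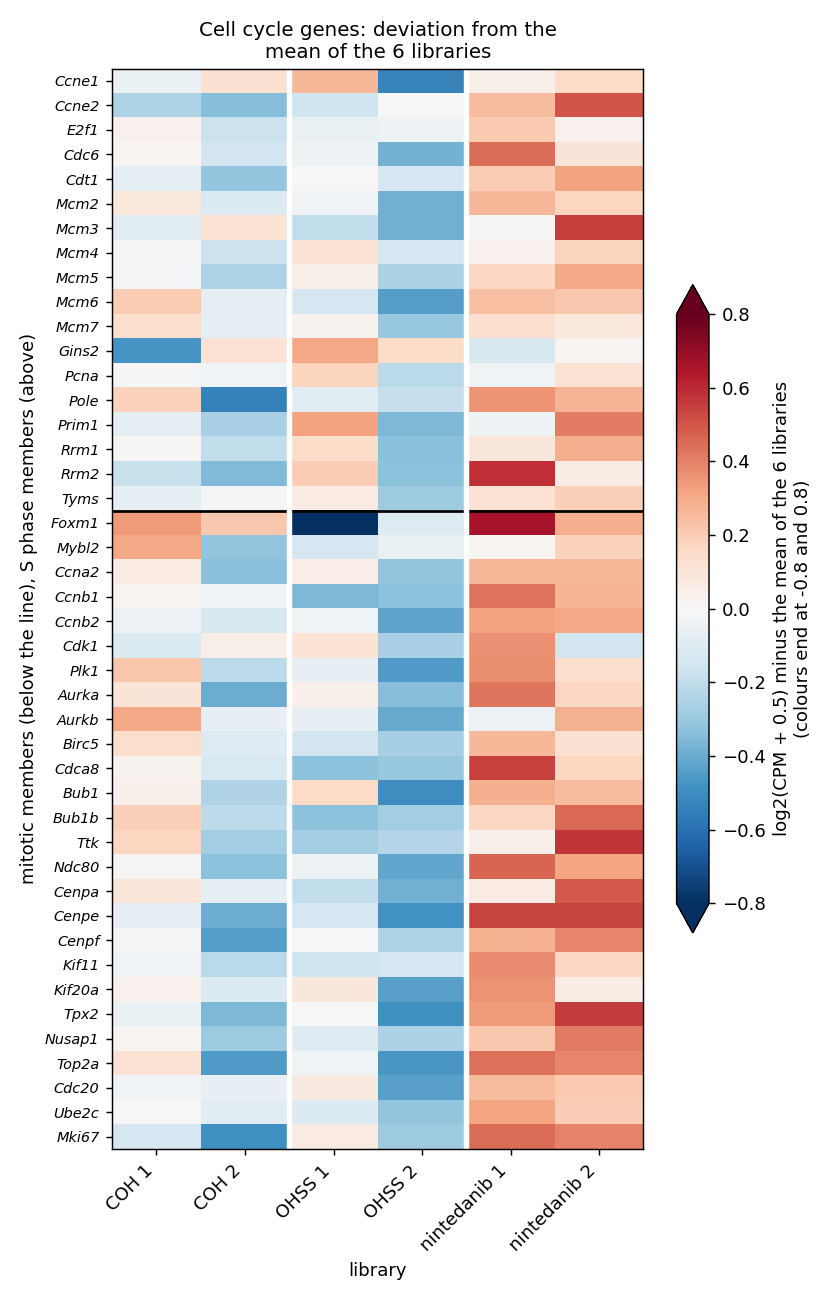
Level of the 44 genes (rows) in the 6 libraries (columns), as log2(CPM + 0.5) minus the gene's mean over the libraries, with S phase genes above the black line and mitotic genes below it. Red (above the gene's mean) fills most of both nintedanib columns, where 40 and 43 of the 44 genes lay above their mean, and OHSS replicate 2 is mostly blue, with 1 gene above its mean.

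Replicates of a group differed in step across the list. In COH, replicate 1 was higher than replicate 2 for 39 of the 44 genes, with a median difference of 0.20 (log2 of CPM), and in OHSS for 35 genes, with a median of 0.33. In the nintedanib group replicate 1 was higher for 25 genes, with a median of 0.02. Over all genes tested the share with replicate 1 higher was 50.5, 52.1 and 49.6%. The 44 genes are therefore not independent of each other within a library, and the count of genes moving one way can rest on a single library.

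In OHSS with nintedanib against OHSS alone, the mitotic genes were higher by a median log2 fold change of 0.51, with all 26 above 0, and the S phase genes by 0.30, with 17 of 18 above 0. The median over all genes tested was 0.01, and 51.5% of them were above 0. The edgeR test called none of the 44 genes (it called 0.00526% of all genes). At an unadjusted p under 0.05 there were 19 of the 44 genes, all higher and 15 of them mitotic, where 3.95% of all genes passed that p and were higher. The groups did not overlap for 35 genes that were higher (19.2% of all genes) and for 1 that was lower (16.9%). By DESeq2, 2 of the 44 were called, Ccnb1 and Cenpe, both higher (0.568% of all genes), and by limma voom none (0.00526%). With OHSS replicate 2 left out, the count at an unadjusted p under 0.05 was 4, the median over the 44 genes 0.34 and the S phase median 0.17. That count was 7 without nintedanib replicate 2, 10 without nintedanib replicate 1, and 16 to 18 with any other library left out.

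Ccnb1 (ENSMUSG00000041431), the cyclin that drives entry into mitosis, stood at 26.7 and 25.9 CPM in COH, 20.4 and 20.9 CPM in OHSS and 35.8 and 32.0 CPM in nintedanib libraries. The 3 groups were separate, with OHSS lowest and nintedanib highest. It was 1.64-fold higher with nintedanib than in OHSS alone, which is 0.71 in log2 (SE 0.121, 95% interval 0.41 to 1.02). The adjusted p by edgeR was 0.493, and over 15 alternatives it ran from 0.000971 (DESeq2) to 0.881. Near-identical copies of Ccnb1 exist in the genome, of which Gm12856, with 2 to 6 counts a library, was in the table. Ccnb2, the related cyclin, had 23.2 and 21.8 CPM in COH, 23.3 and 17.7 in OHSS and 30.0 and 29.6 in nintedanib libraries (log2 0.54 against OHSS, SE 0.166). Cdk1, the kinase that both cyclins activate, overlapped between all groups at 28.8 and 32.3, 33.7 and 25.9, and 40.2 and 28.1 CPM. Ccna2, the cyclin of S phase and early mitosis, stood at 45.9 and 34.6, 45.4 and 35.0, and 52.7 and 52.7 CPM, with both nintedanib libraries above the others.

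Cenpe (ENSMUSG00000045328), the kinetochore motor that moves chromosomes to the spindle equator, was at 11.97 and 9.42 CPM in COH, 11.4 and 8.84 CPM in OHSS and 18.5 CPM in both nintedanib libraries. The COH and OHSS libraries overlapped and the nintedanib libraries stood clear of them. Its log2 fold change with nintedanib was 0.87 against OHSS (SE 0.204), with an adjusted p by edgeR of 0.639 and a range of 0.0423 to 0.881 over the alternatives. Against COH it was 0.79 (SE 0.203), with 0.474 by edgeR and a range of 0.0487 to 0.965. The lowest value of each range came from DESeq2. Cenpf, another large kinetochore protein, was at 25.7 and 18.7, 25.6 and 21.5, and 31.2 and 33.7 CPM, and Ndc80, which ties the kinetochore to microtubules, at 7.19 and 5.57, 6.91 and 5.21, and 10.02 and 8.98 CPM. Both had the same layout as Cenpe. Cenpa, the histone that marks the centromere, had 25.997 and 22.98, 21.1 and 18.5, and 25.5 and 34.3 CPM, so that nintedanib and COH overlapped and OHSS lay below both.

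**Figure D2:**
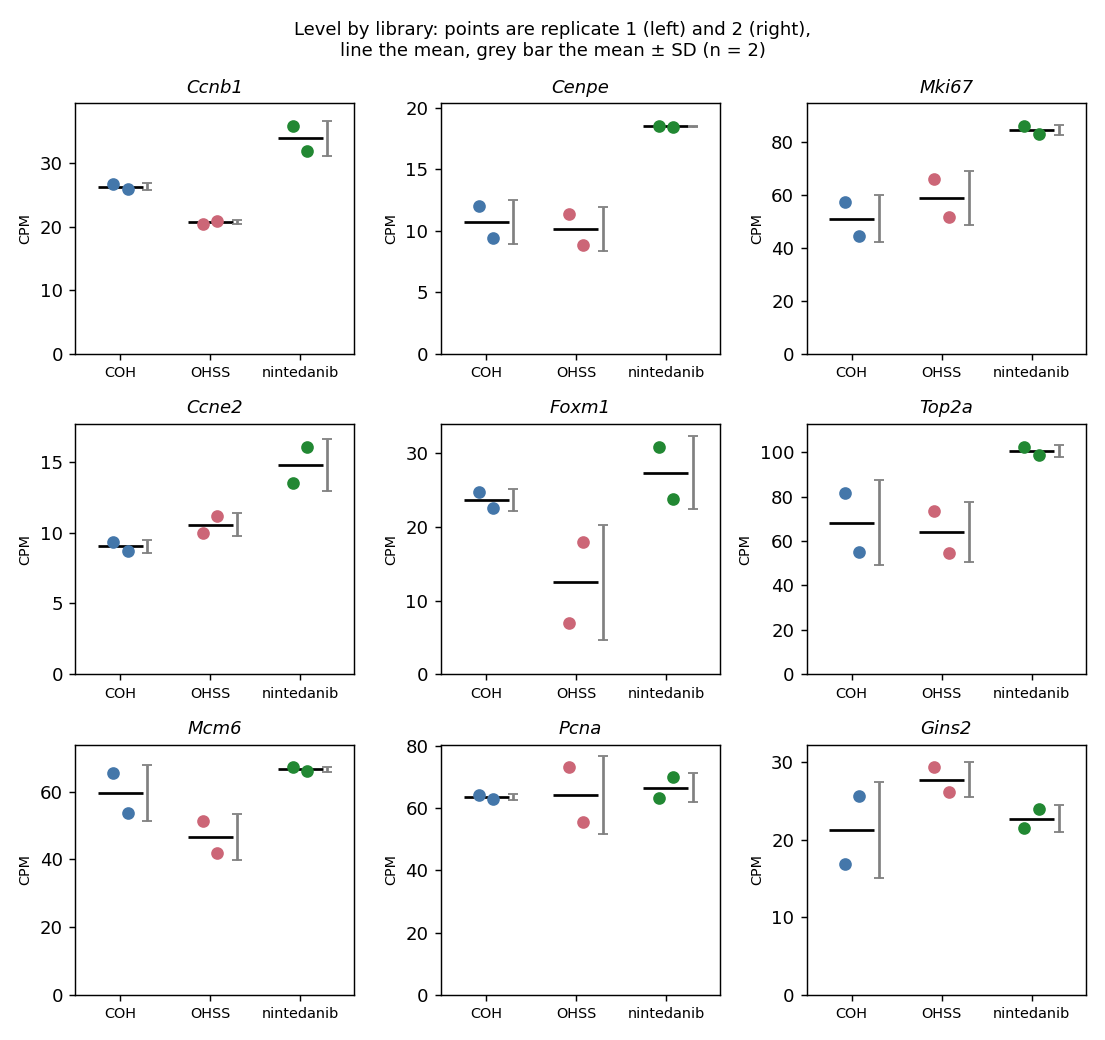
Level in CPM (vertical axis, from 0) of 9 genes in each library, points for replicates 1 and 2, black line the group mean and grey bar the mean ± SD (n = 2). The nintedanib points lie above all others for Ccnb1, Cenpe, Mki67, Ccne2, Top2a and Mcm6, Foxm1 shows the low OHSS replicate 1, and Pcna and Gins2 show no such separation.

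Spindle and chromosome genes had a similar layout. Top2a, the enzyme that untangles sister DNA, was at 81.8 and 54.9 CPM in COH, 73.6 and 54.4 in OHSS and 102 and 98.6 in nintedanib libraries (log2 0.65 against OHSS, SE 0.237). Mki67 (ENSMUSG00000031004), the usual marker of cycling cells, was at 57.3 and 44.6, 65.8 and 51.6, and 85.8 and 83.1 CPM. For both genes the nintedanib libraries lay together above a broad spread of the other 4. Tpx2, which loads Aurora A onto the spindle, was at 36.4 and 29.2, 37.6 and 26.7, and 47.8 and 55.9 CPM (0.69 against OHSS, SE 0.215), and Kif11 at 20.3 and 17.8, 18.6 and 18.9, and 27.2 and 23.3 CPM (0.43, SE 0.146). Nusap1, a microtubule bundling protein, followed with 25.6 and 20.6, 23.5 and 21.2, and 29.5 and 33.8 CPM. Kif20a, the motor of the central spindle, overlapped between OHSS (21.9 and 15.0 CPM) and nintedanib (26.4 and 21.3 CPM). Its row is uncertain, as 1271 of its 4338 exon bases lie over Cdc23 on the opposite strand and the use of strand in counting is not given.

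Cdca8, a subunit of the chromosomal passenger complex, was at 17.5 and 15.7 CPM in COH, 13.6 and 13.8 in OHSS and 25.3 and 19.4 in nintedanib libraries (0.71 against OHSS, SE 0.177). Its partners Birc5 (25.9 and 21.7, 21.0 and 19.4, 28.2 and 25.5 CPM) and Aurkb (20.0 and 15.3, 15.3 and 12.04, 15.6 and 19.7 CPM) overlapped between COH and nintedanib. Aurkb was the only one of the 44 whose fitted value was not above 0 against COH, at -0.0024 (SE 0.225), and it was above 0 under RLE scaling. Bub1b, a checkpoint protein, was at 29.8 and 22.5, 20.7 and 21.4, and 29.3 and 35.9 CPM (0.63 against OHSS, SE 0.188). Against OHSS the remaining regulators ran from 0.41 to 0.61 for Bub1, Ttk, Plk1 and Aurka. At the exit from mitosis, Ube2c, which tags cyclin for destruction, was at 42.8 and 40.1, 39.4 and 34.2, and 53.1 and 49.0 CPM (0.47, SE 0.124), with all 3 groups separate. Cdc20, which activates the ligase that UBE2C serves, was at 27.2 and 26.5, 29.2 and 20.5, and 33.2 and 32.2 CPM (0.40, SE 0.190).

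Foxm1, the factor that raises the mitotic genes, had the largest fold changes of the list in the comparisons with OHSS, and the widest replicate gap. It was at 24.7 and 22.6 CPM in COH, 6.98 and 17.98 CPM in OHSS and 30.9 and 23.8 CPM in nintedanib libraries. OHSS replicate 1 was far below every other library, and OHSS replicate 2 was the next lowest. Its log2 fold change was 1.13 with nintedanib against OHSS (SE 0.443) and -0.92 in OHSS against COH (SE 0.441). With single libraries left out these ran from 0.59 to 1.97 and from -1.77 to -0.38, the smaller sizes both without OHSS replicate 1. Most mitotic genes did not share that low value: in OHSS replicate 1 the median mitotic gene was at -0.07 from its mean over the libraries, against -0.32 in OHSS replicate 2. Mybl2, the factor that acts before FOXM1, was at 22.8 and 14.6, 16.7 and 17.6, and 18.5 and 20.9 CPM, with COH and nintedanib overlapping.

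Among the S phase genes, the largest values against OHSS were those of Mcm3 and Mcm6, of the helicase, and of Cdc6, which loads it. Mcm6 was at 65.5 and 53.8 CPM in COH, 51.4 and 41.8 in OHSS and 67.2 and 66.1 in nintedanib libraries (0.52 against OHSS, SE 0.157). Mcm3 was at 35.4 and 40.5, 32.6 and 28.5, and 37.7 and 55.1 CPM (0.60, SE 0.211), and Mcm2 at 56.7 and 49.5, 52.5 and 40.8, and 64.4 and 60.2 CPM (0.42, SE 0.159). In these 3 helicase genes OHSS lay below nintedanib without overlap. Mcm5 was at 39.0 and 33.1, 40.7 and 33.0, and 44.2 and 48.7 CPM, also with both nintedanib libraries above the others. Against OHSS its value was 0.34 (SE 0.158), beside 0.24 for Mcm7 (SE 0.151) and 0.11 for Mcm4 (SE 0.138), although all 6 proteins form 1 ring. Of the loading factors, Cdc6 was at 8.97 and 7.92, 8.58 and 6.70, and 12.2 and 9.54 CPM (0.51, SE 0.226), and Cdt1 at 12.2 and 10.3, 12.8 and 11.6, and 14.9 and 16.2 CPM (0.34, SE 0.164). Gins2, a subunit of the active helicase, was the only one of the 44 with a value below 0 against OHSS. It stood at 16.9 and 25.6, 29.3 and 26.2, and 21.5 and 23.9 CPM (-0.29, SE 0.224). That row is uncertain, as 2758 of its 4097 exon bases lie over Gse1 on the opposite strand.

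Ccne2 (ENSMUSG00000028212), a cyclin of the entry into S phase, was at 9.36 and 8.72 CPM in COH, 9.97 and 11.2 CPM in OHSS and 13.5 and 16.1 CPM in nintedanib libraries. The 3 groups were separate in that order, and 609 of its 3495 exon bases lie over Ints8 on the opposite strand, so its reads are uncertain. Ccne1, its close relative, was at 6.15 and 7.005, 7.81 and 4.26, and 6.63 and 7.17 CPM and overlapped throughout. E2f1, a factor that starts S phase, was at 14.4 and 12.4, 13.4 and 13.6, and 16.3 and 14.4 CPM. The enzymes of DNA building blocks were uneven within the groups: Rrm2 was at 27.9 and 24.7, 36.5 and 25.1, and 47.7 and 33.0 CPM, Rrm1 at 62.1 and 53.8, 68.3 and 48.8, and 65.7 and 75.7 CPM, and Tyms at 14.1 and 14.8, 15.7 and 12.2, and 16.2 and 17.1 CPM. In all 3 the nintedanib libraries lay above both COH libraries, and Tyms alone also cleared both OHSS libraries. Pole, Prim1 and Pcna, of the copying machine itself, had values of 0.47 (SE 0.267), 0.19 (SE 0.306) and 0.05 (SE 0.158) against OHSS. Pcna, at 64.3 and 62.9, 73.1 and 55.5, and 63.3 and 69.9 CPM, overlapped across the groups.

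In OHSS with nintedanib against COH, the list was also higher, by a median of 0.34 against -0.00099 over all genes. This comparison shares the nintedanib libraries with the one before, so its values stand beside them and add no separate support. All 18 S phase genes (median 0.26) and 25 of 26 mitotic genes (median 0.38) were above 0, as were 49.9% of all genes. The edgeR test called none of the 44 (0.0263% of all genes), and 9 genes, all higher, had an unadjusted p under 0.05 (5.62% of all genes). The groups did not overlap for 30 genes, all higher (22.3% of all genes). DESeq2 called 3, Mki67, Ccne2 and Cenpe, all higher (1.63% of all genes), and limma voom none (0.0105%). Mki67 was higher by 0.73 in log2 (SE 0.180), with an adjusted p of 0.467 by edgeR and a range of 0.0358 to 0.965 over the alternatives. Ccne2 was higher by 0.71 (SE 0.172), with 0.462 by edgeR and a range of 0.0368 to 0.965 for the adjusted p. Without COH replicate 2 the count at an unadjusted p under 0.05 was 2 and the median 0.24.

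In OHSS against COH, most of the 44 genes had values near 0. Their median was -0.08, with 12 genes above 0 (49.6% of all genes) and 32 below, the S phase genes at 0.01 (10 of 18 above 0, and a median of -0.05 with scaling by library size alone) and the mitotic genes at -0.12 (2 of 26 above 0, Cenpf and Mki67), against -0.003 over all genes. The edgeR test called none of the 44 (0.0105% of all genes), and 1, Ccnb1, was lower at an unadjusted p under 0.05 (4.24% of all genes). DESeq2 (1.83% of all genes) and limma voom (0%) called none. The groups did not overlap for 10 genes that were lower (22.9% of all genes) and 2 that were higher (21.2%), Ccne2 and Gins2. Ccnb1 had a log2 fold change of -0.35 (SE 0.120, unadjusted p = 0.0316, 95% interval -0.65 to -0.04). The sign of the median turned with the library left out, at 0.05 without COH replicate 1 and 0.09 without OHSS replicate 2.

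**Figure D3:**
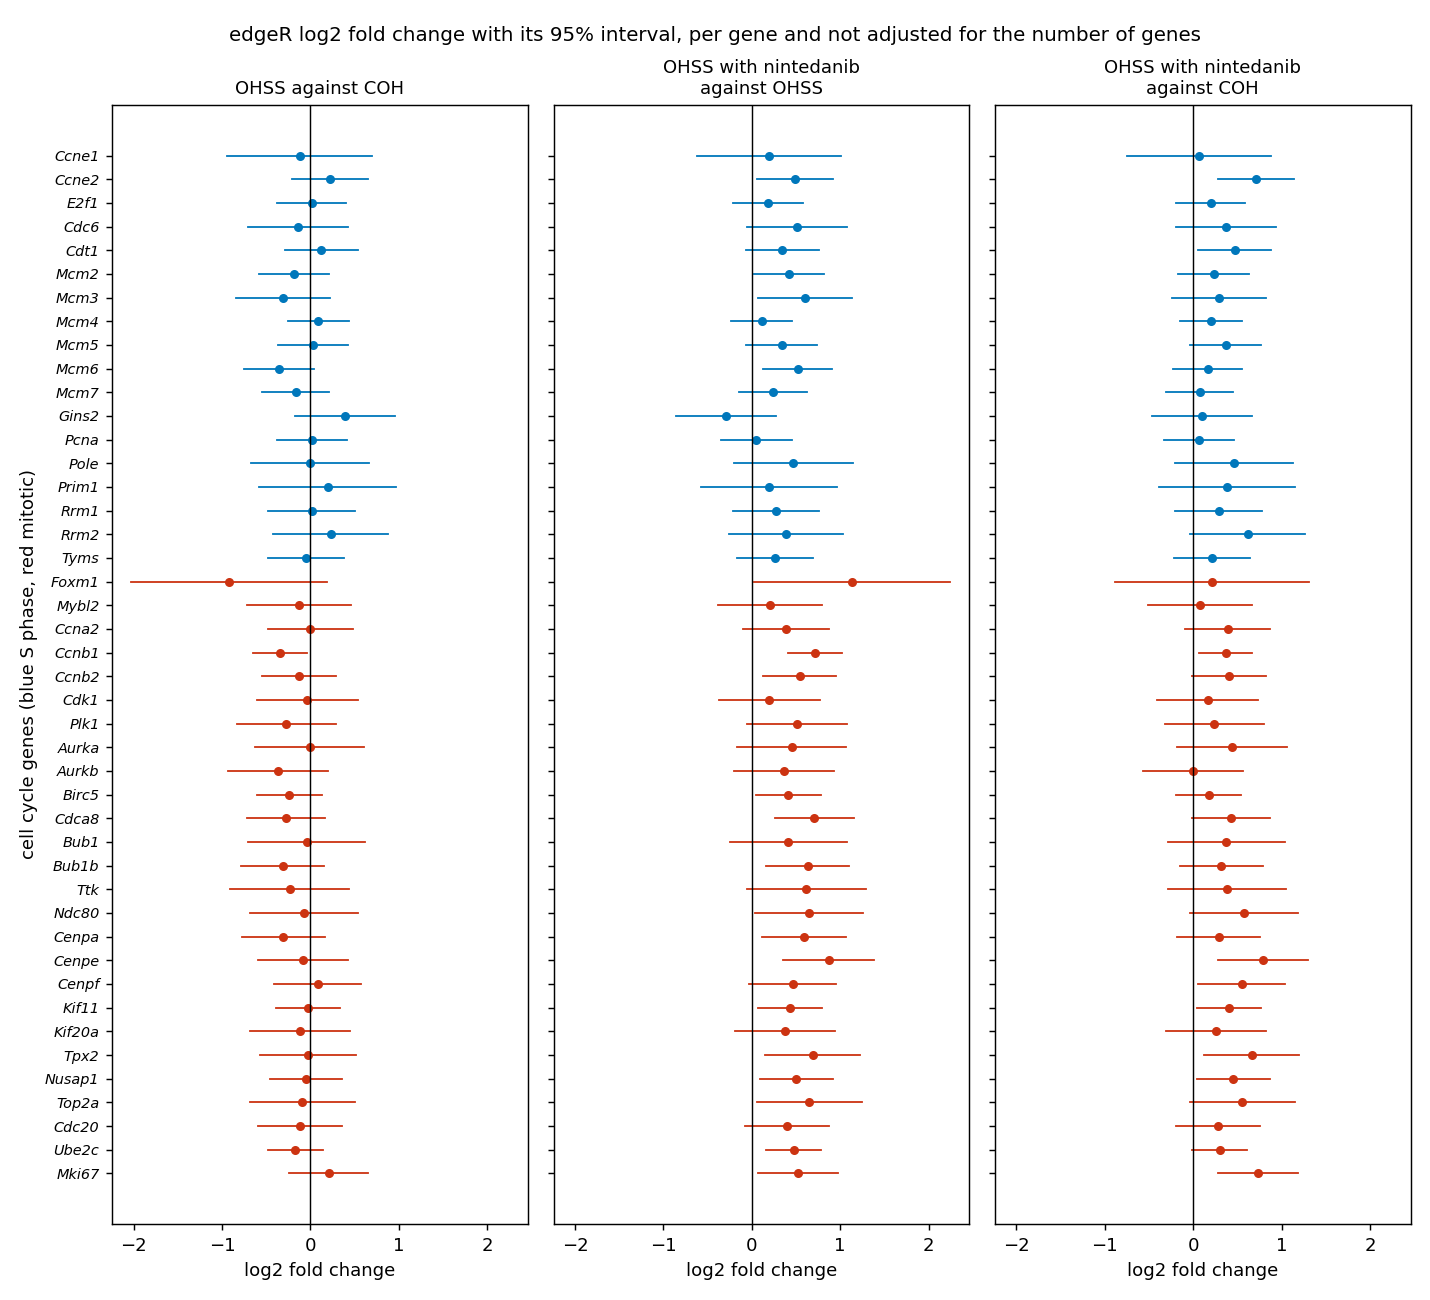
Log2 fold change (horizontal axis) of each of the 44 genes in the 3 comparisons, points with their 95% interval per gene, S phase genes in blue and mitotic genes in red. In OHSS against COH the S phase points scatter on both sides of 0 (10 of 18 above) and 24 of 26 mitotic points lie below it. Points lie above 0 for 43 of 44 genes in each comparison of the nintedanib group, where many intervals still cross 0.

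**Figure D4:**
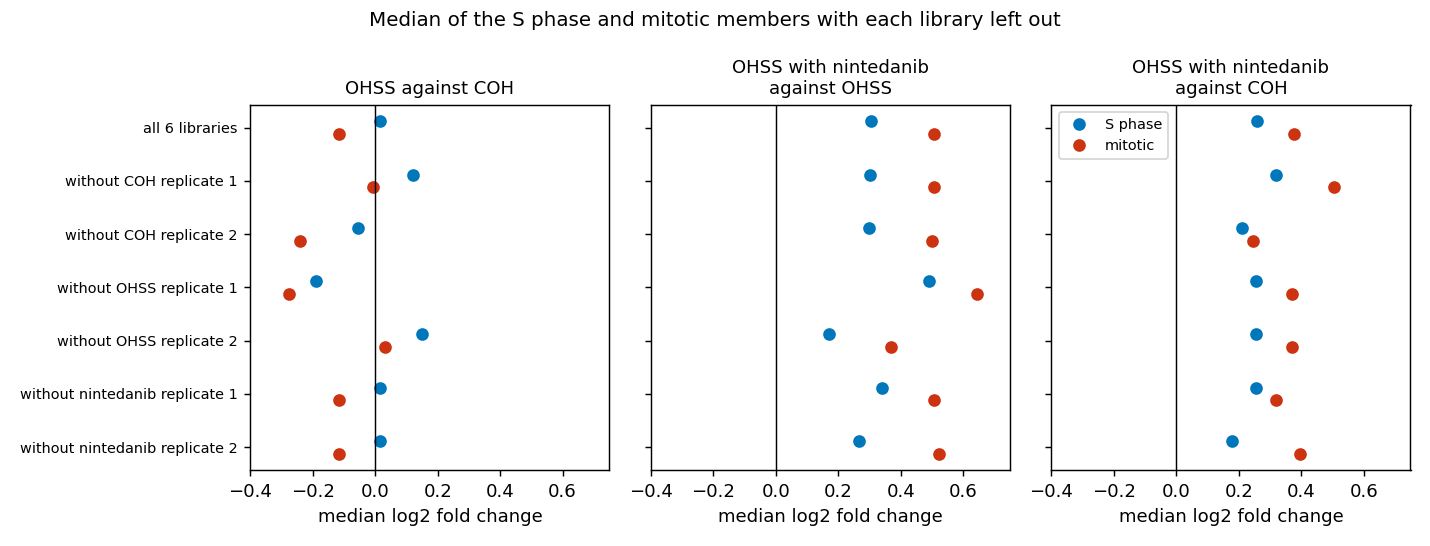
Median log2 fold change (horizontal axis) of the 18 S phase and 26 mitotic genes with all 6 libraries and with each library left out (rows), in the 3 comparisons. In the comparisons with the nintedanib group the medians stay above 0, from 0.17 to 0.64, and in OHSS against COH they run from -0.28 to 0.15.

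Further genes of the cycle, from lists of 30 for replication, 47 for mitosis, 15 for entry into the cycle and 21 for its brakes, were measured beside them. With nintedanib against OHSS, the other mitosis genes had a median of 0.42, with 44 of 47 above 0. At an unadjusted p under 0.05, 16 of them were higher (3.95% of all genes) and 2 lower (3.47%). The other replication genes had 0.22, with 28 of 30 above 0 and 1 at that p, Uhrf1. The entry genes had 0.23 (11 of 15 above 0) and the brakes -0.08 (9 of 21 above 0). Against COH the medians were 0.35, 0.21, 0.17 and -0.13, and in OHSS against COH they were -0.05, -0.06, -0.01 and -0.01. The edgeR test called no gene of these lists in any comparison. Cdca2, a chromatin regulator of mitotic exit, stood at 10.5 and 8.44 CPM in COH, 9.61 and 8.94 in OHSS and 17.0 and 14.2 in nintedanib libraries (log2 0.75 against OHSS, SE 0.191), clear of the other libraries. E2f7, a repressor that E2F factors switch on, was at 7.08 and 5.88, 6.56 and 5.41, and 9.68 and 9.23 CPM. Uhrf1, which keeps DNA methylation through copying, was at 50.5 and 46.8, 40.3 and 36.3, and 46.3 and 53.1 CPM, lowest in OHSS.

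Cep55, needed for the last cut between daughter cells, was at 11.4 and 10.5 CPM in COH, 13.4 and 10.1 in OHSS and 6.35 and 5.61 in nintedanib libraries. Both nintedanib libraries were below all others, at -0.98 in log2 against OHSS (SE 0.208) with an adjusted p by edgeR of 0.628, and DESeq2 called it lower. Cdkn1b, which encodes the brake p27, was at 159 and 218, 172 and 166, and 115 and 131 CPM, lowest with nintedanib (-0.46 against OHSS, SE 0.172). Both genes had values opposite in sign to most of the 44. Ccnd2, the granulosa cell cyclin of entry, was at 179 and 169, 163 and 167, and 179 and 229 CPM. Ccnd3, another D cyclin, was uneven within OHSS, at 21.8 and 19.5, 24.3 and 97.8, and 53.3 and 72.2 CPM.

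Markers of the cell types that a whole ovary holds were measured beside the list, and their part in its level was not tested. Granulosa cell markers were likewise highest with nintedanib. Their summed level was 3610 and 3381 CPM in COH, 3695 and 3898 in OHSS and 5676 and 5817 in nintedanib libraries. In OHSS against COH, 8 of the 12 were above 0 (49.6% of all genes), with a median of 0.16 beside -0.08 for the 44 genes. None of the 12 was at 0 in any library, and 12 of 12 were above 0 with nintedanib against OHSS (51.5% of all genes), with a median of 0.56, and 6 of them had an unadjusted p under 0.05 (3.95% of all genes were higher at that p). Inha, the shared subunit of the inhibins, was at 1961 and 2155, 2293 and 2087, and 3558 and 2879 CPM, and Inhba, a subunit of activin, at 186 and 145, 271 and 390, and 539 and 894 CPM. Set against the granulosa sum, the mitotic sum was 19.9 and 17.4% for COH, 17.7 and 14.0% for OHSS, and 15.5 and 14.7% for nintedanib libraries, and the S phase sum 15.5 and 15.2%, 15.7 and 11.9%, and 10.99 and 11.2%. On that scale, chosen after the values were seen, the nintedanib libraries were not the highest. The granulosa sum rests largely on Inha, its largest part. The order depends on the scale. The macrophage sum, given below, was lowest with nintedanib, so dividing by it keeps the nintedanib libraries highest in both sets. The remaining marker sums were not used as a scale. What any cell type adds to the level of the list was not tested. The sum of endothelial markers was lowest in OHSS and highest with nintedanib, at 697 and 682, 577 and 602, and 730 and 750.5 CPM, with no marker at 0. With nintedanib their median was 0.12 against COH, with 7 of 9 above 0 (49.9% of all genes). Against OHSS it was 0.28, with 9 of 9 above 0 (51.5% of all genes). Luteal markers were highest in OHSS, at 28387 and 29883, 35592 and 38625, and 29706 and 27197 CPM. Oocyte markers, at 531 and 364, 289 and 348, and 272 and 506 CPM, differed widely within the nintedanib group. Of the 18, 17 were below 0 in OHSS against COH (median -0.49) and 16 above 0 with nintedanib against OHSS (median 0.40). The sum of macrophage markers, at 587 and 634, 676 and 451, and 418 and 377 CPM, was lowest with nintedanib. Their median log2 fold change with nintedanib was -0.17 against COH, where the lowest marker was at -1.92, and -0.30 against OHSS. By median deviation, OHSS replicate 2 (-0.146) lay level with the nintedanib libraries (-0.153 and -0.132). The sum of lymphocyte markers was 8.41 to 13.1 CPM in every library. A list of early response genes, such as Jun and Egr1, and heat shock genes, such as Hspa1b, was at 1093 and 1519, 613 and 779, and 717 and 1931 CPM. Of these 10 genes, 9 were below 0 in OHSS against COH and 8 above 0 with nintedanib against OHSS (median 0.77). Their median deviation from the mean of the 6 libraries was -0.57 and -0.41 in OHSS, and -0.57 and 0.80 in nintedanib libraries. The rise thus rested largely on nintedanib replicate 2.

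**Figure D5:**
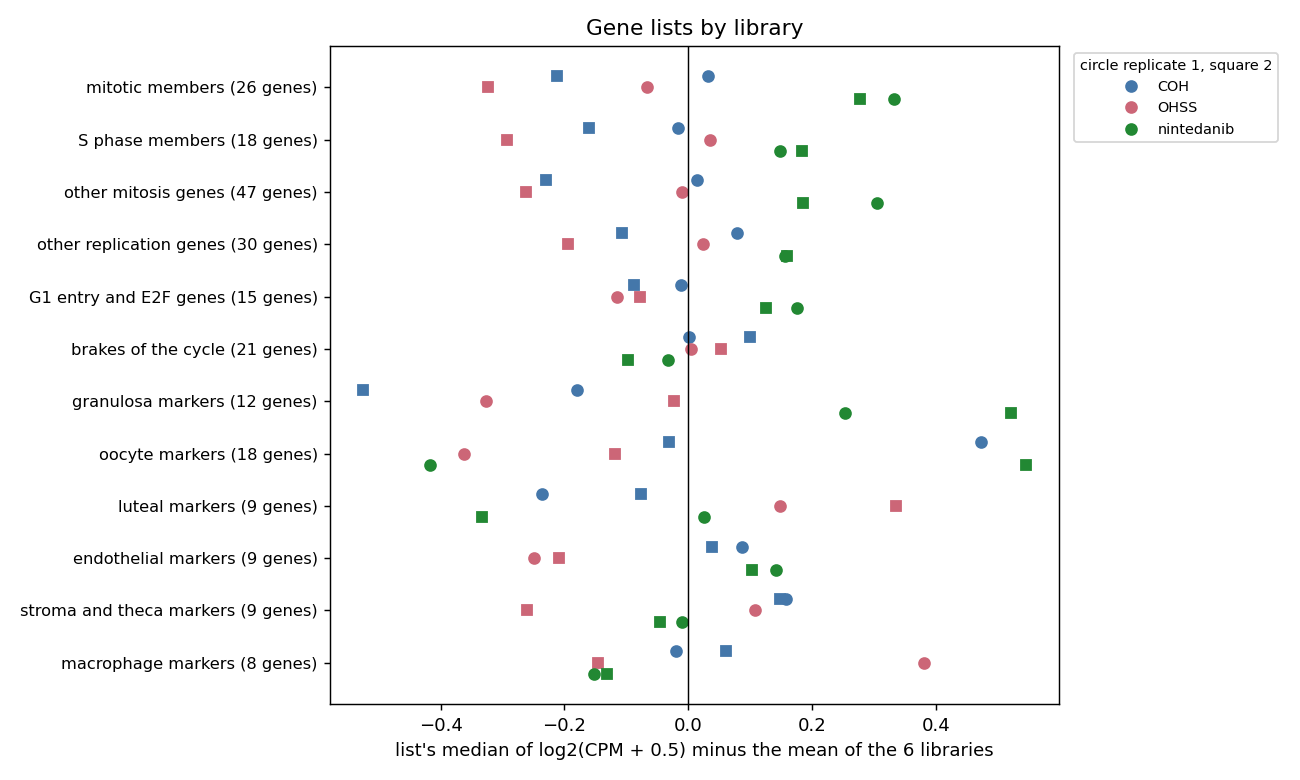
Median level of each gene list by library (horizontal axis, log2(CPM + 0.5) minus the mean of the 6 libraries), coloured by group, circles for replicate 1 and squares for replicate 2. The nintedanib libraries lie to the right for the division lists and for granulosa and endothelial markers. They lie to the left for the brakes of the cycle, while oocyte markers spread within each group.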

How the data were processed

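RNA of flash frozen ovaries was sequenced from mRNA libraries, 6 in all and 2 per group, per the labels. The table holds whole-number counts per gene, deposited by the authors, with 51826 genes. Trimmomatic 0.36, StringTie 1.3.3b, HISAT2 2.1.0 and the build mm8 stand in the submitters' processing notes without roles. Strand use, the counter, the annotation and the handling of reads with several matches were not given in the sources used here. Deposited read summaries list other values, the reads per library, and the counts came to 144 to 148% of the read pairs, so both mates of a pair may have been counted, which would understate counting error.

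From these counts, filterByExpr kept 19027 genes, and edgeR 4.0.16 (R 4.3.3) fitted the 3 groups together with TMM scaling and its quasi-likelihood F test. Benjamini-Hochberg adjustment ran over all genes tested, with a threshold of 0.05. With 3 residual and 2.41 prior degrees of freedom, SEs came from the F statistic and 95% intervals from the t quantile. Alternatives were other scalings and filters, DESeq2 1.42.0, limma 3.58.1 voom, a replicate block, fits of 2 groups, and each library left out. The scripts were tested on simulated data. The members and lists were chosen with earlier results of these data known. All 44 members may be named; of each other cycle list, up to 3 genes with the smallest p per comparison were named, and of each marker list, up to 3 with the highest mean CPM. Exon lengths and overlaps are from GENCODE M21 and promoters from RefSeq, both on GRCm38, matched by ID or symbol, and no coordinate of the count table was used. Single features outside that rule are said to have been chosen after their values were seen.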

Additional observations from a re-analysis of the deposited data

How the results depend on the processing

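The tests rest on 2 libraries a group, and the 44 genes had 129 counts or more in every library. All genes called in OHSS against COH, in OHSS with nintedanib against OHSS and in OHSS with nintedanib against COH numbered 2, 1 and 5 by edgeR, 348, 213 and 436 by DESeq2, 0, 1 and 2 by limma voom, 4, 2 and 6 with no filter on low counts, and 0, 0 and 2 in fits of the 2 groups alone. With 1 library left out the counts ranged over 0 to 2, 0 to 30 and 0 to 53, with 30 and 53 both found without nintedanib replicate 1. Of the 44 genes, DESeq2 called 0, 2 and 3, and no other alternative called any, the lowest adjusted p among them being 0.293, 0.246 and 0.255. The median over the 44 genes ran from -0.26 to 0.09, 0.34 to 0.58 and 0.24 to 0.45 over 15 alternatives. The sign of the fitted value turned under at least 1 alternative for 27, 5 and 8 of the 44 genes, none of which was called. Scaling by library size alone moved the median of all genes tested to -0.06, 0.08 and 0.009. The cause of these differences was not tested.

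The groups share replicate numbers, but the labels tie them to no litter, batch or day. Over all genes tested, the deviations of libraries with the same number correlated at -0.00072, 0.048 and -0.0023. Among the 44 genes alone, replicate 1 was higher for 39 in COH, 35 in OHSS and 25 in the nintedanib group. With a replicate block, edgeR called 1, 0 and 2 of all genes and none of the 44, of which 2, 21 and 15 were at an unadjusted p under 0.05.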
